A study of Mus musculus with 3 samples.

Results

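A set of 6 genes of colony-stimulating factor signalling was followed through a mouse brain cell pool: the ligand genes Csf1 and Il34, their receptor gene Csf1r, the Csf2 receptor subunit genes Csf2ra and Csf2rb, and the Csf3 receptor gene Csf3r. They were chosen by name, with earlier results of these data known, and all 6 were among the 17551 genes of the deposited expression table. Csf1r is a receptor tyrosine kinase of the surface of microglia, monocytes and macrophages, and microglia depend on it for survival. Csf1, a secreted or membrane-bound protein, and Il34, a secreted one, bind this same receptor, Il34 being known in the healthy brain as a neuronal product. Csf2ra and Csf2rb pair to form the receptor for Csf2 (GM-CSF), whose shared beta chain signals through Jak2 and Stat5, and Csf3r is the receptor for Csf3 (G-CSF) on neutrophils and their precursors.

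The cells came from 4 brains of female C57BL/6 mice aged 2 to 3 months. Some were naive brains without metastases, and the others bore brain metastases about 2 weeks after E0771 cells, a mouse mammary carcinoma line, were injected into the carotid artery. The labels used here do not say which hashtag marked which condition, so each brain is named by its hashtag number and no naive brain was set against a metastatic one. CITE-seq, which counts antibody tags and mRNA of the same cell, was run as 3 libraries (mRNA, antibody tags and hashtags) of 1 pool enriched for mononuclear cells on a density gradient. All 4 brains share strain, sex, age range and antibody panel, and the pool holds brain cells and, per the labels, metastatic tumor cells that no label ties to a cluster.

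The pool held 4668 cells: 844, 410, 1385 and 2029 from the hashtag 1, 2, 3 and 4 brains, with median depths of 4370.5, 5599.5, 12450 and 12806 UMIs per cell, a UMI (unique molecular identifier) being the tag by which copies of 1 mRNA molecule are counted once. The deposited clusters carry numbers only. By markers, cluster 1 was choroid plexus-like, cluster 4 endothelial-like and cluster 9 smooth muscle-like, and clusters 3 and 6 held the immune cells, with a CD45 tag count of at least 300 in 99.8% and 91.0% of their cells. Rhox5, a homeobox gene of placenta and tumor lines, was highest in clusters 0, 2 and 7, at 4.83, 5.25 and 5.42 UMIs per 10000, and these are called Rhox5-positive below. Clusters 5, 8 and 10 were left unnamed, and Rhox5 stood at 4.23 in cluster 10, 3.68 in cluster 9 and 2.80 in cluster 8, so the name sets no sharp border. RNA of other cells lay in every cluster: Ttr, the defining gene of the choroid plexus, stood at 3017 per 10000 in cluster 1 and at 262 in cluster 3. In values summed over a cluster, fewer cells of a type and less RNA per cell cannot be told apart, and all intervals below cover counting error only.

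The tests rest on 2 antibody tags whose barcodes are shown because they, and not the mRNA, parted the cells. CD45 marks blood-lineage cells and CD11b is an integrin of myeloid cells.
CD45 tag: tggctatggagcaga
CD11b tag: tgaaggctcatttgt
Of the 6 genes, 3 had a window of 250 bases before to 50 bases after a start site in a table of RefSeq promoters (GRCm38.p6). This start site need not be the outer end of the gene span given below: the Csf3r window lies inside the span of Csf3r, and the start site of the Csf2ra window lies inside that of Csf2ra. The 2 receptor windows are shown because both genes were higher in CD45-tag-high cells, with capitals marking GAGGAA, a core of sites bound by the myeloid factor Spi1, which was searched on both strands (as GAGGAA or TTCCTC).
Csf2ra, chr19:61228369-61228668, minus strand: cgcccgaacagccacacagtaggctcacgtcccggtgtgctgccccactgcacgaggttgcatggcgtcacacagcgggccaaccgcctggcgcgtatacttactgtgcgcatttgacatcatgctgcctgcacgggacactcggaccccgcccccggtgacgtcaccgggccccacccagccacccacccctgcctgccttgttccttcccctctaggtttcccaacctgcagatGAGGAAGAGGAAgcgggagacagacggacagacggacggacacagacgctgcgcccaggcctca
Csf3r, chr4:126024409-126024708, plus strand: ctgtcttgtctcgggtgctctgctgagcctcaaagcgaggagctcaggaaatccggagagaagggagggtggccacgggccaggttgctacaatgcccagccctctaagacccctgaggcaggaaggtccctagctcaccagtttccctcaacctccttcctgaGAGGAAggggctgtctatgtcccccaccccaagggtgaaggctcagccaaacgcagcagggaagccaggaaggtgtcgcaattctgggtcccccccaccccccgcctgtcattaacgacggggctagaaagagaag
The Csf2ra window held 2 matches, beginning 14 and 8 bases before the start site of that window, and the Csf3r window 1 match, beginning 86 bases before its own. The Csf1 window (chr3:107760420-107760719, minus strand) held 0. Of 32851 mouse promoter windows of this length, 28.3% held the motif at least once and 4.82% at least 2 times, so a match is common and describes letters only.

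In the pool as a whole, most receptor UMIs and most ligand UMIs lay in different clusters. Csf1r had 1451 UMIs in 888 cells (gene at chr18:61105572-61131139, GRCm38), and 56.4% of them came from the immune clusters 3 and 6, which held 5.29% of all UMIs. The same clusters gave 56.7% of the 448 Csf2ra UMIs (chr19:61217191-61228461), 64.5% of the 330 Csf2rb UMIs (chr15:78325800-78351001) and 54.6% of the 196 Csf3r UMIs (chr4:126023441-126044975). For the ligands, clusters 3 and 6 gave 3.07% of the 1074 Csf1 UMIs (chr3:107741048-107760469) and 1.23% of the 2034 Il34 UMIs (chr8:110741829-110805949). The Rhox5-positive clusters 0, 2 and 7 gave 77.1% of Csf1 and 83.0% of Il34 UMIs, against their 68.5% of all UMIs. The pooled shares are weighted to the deep hashtag 3 and 4 brains. Within the hashtag 1, 2, 3 and 4 brains, clusters 3 and 6 gave 63.9%, 74.0%, 53.6% and 49.3% of Csf1r UMIs, against 17.5%, 6.60%, 4.60% and 3.46% of all UMIs. They gave 7.41%, 30.4%, 3.60% and 1.51% of Csf1 UMIs and 9.09%, 8.11%, 1.69% and 0.406% of Il34 UMIs, so that in the hashtag 2 brain, with 7 of 23 Csf1 and 3 of 37 Il34 UMIs, both ligand shares were above the share of all UMIs. Clusters 0, 2 and 7 gave 27.8%, 17.4%, 77.5% and 83.0% of Csf1 UMIs and 40.0%, 18.9%, 85.2% and 85.6% of Il34 UMIs, against 18.3%, 13.9%, 75.9% and 77.8% of all UMIs. Both ligand shares were above the share of all UMIs in each brain, by most in the hashtag 1 brain. They rest there on 15 of 54 Csf1 and 22 of 55 Il34 UMIs, and in the hashtag 2 brain on 4 of 23 and 7 of 37. For Csf1 the gap was smallest in the hashtag 3 brain, at 77.5% against 75.9%.

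**Figure D1:**
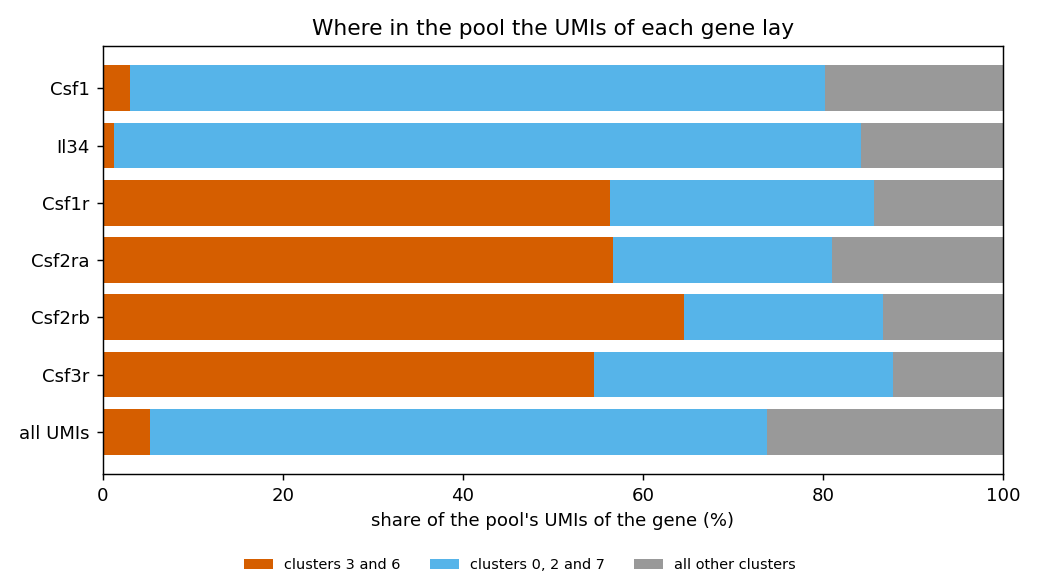
Stacked bars give the share of the pool's UMIs of each gene (percent) that lay in the immune clusters 3 and 6, the Rhox5-positive clusters 0, 2 and 7 and all other clusters, with all UMIs of the pool in the lowest bar. Clusters 3 and 6 gave 54.6% to 64.5% of the UMIs of the 4 receptor genes and 1.23% and 3.07% of those of Il34 and Csf1.

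Among the ligands, Csf1 was spread over many clusters. Its level, as summed UMIs of the gene per 10000 UMIs, was 0.544, 0.224, 0.496 and 0.273 in endothelial-like cluster 4 of the hashtag 1, 2, 3 and 4 brains, which gave the highest median (0.384). In cluster 0 the level was 0.217, 0.207 and 0.269 in the hashtag 1, 3 and 4 brains, and in cluster 2 it was 0.173, 0.110, 0.202 and 0.275 in the 4 brains. Choroid plexus-like cells were at the low end of the order with 0.0744, 0.0134, 0.0671 and 0.116. Between neighbours in the order of medians over brains with at least 20 cells, the ranges overlapped in all cases. Clusters further apart in the order could still differ. The ranges of cluster 4 (0.224 to 0.544) and cluster 0 (0.207 to 0.269) lay above that of choroid plexus-like cells (0.0134 to 0.116). In immune cluster 3, Csf1 was at 0, 0.503, 0.163 and 0.0966, where the hashtag 2 value rests on 7 UMIs in 2 of 34 cells.

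Il34 followed another order. Smooth muscle-like cluster 9 had the highest median (0.571), with 0.194, 0.605 and 0.571 per 10000 in the hashtag 1, 3 and 4 brains. Next came cluster 10 with 0.478 and 0.638 in the hashtag 3 and 4 brains, and cluster 0 with 0.217, 0.485 and 0.538 in the hashtag 1, 3 and 4 brains. Endothelial-like cells stood at 0.242, 0.597, 0.312 and 0.299 in the 4 brains. Immune cluster 3 was lowest, at 0, 0.0719, 0.163 and 0.0241, and here too all neighbouring ranges overlapped. The range of cluster 3 still lay below those of clusters 9, 10 and 0 and of endothelial-like cells, while it overlapped those of clusters 1, 5, 6 and 8. The clusters at the top of this order, 9, 10 and 0, had Rhox5 at 3.68, 4.23 and 4.83 per 10000, against 0.700 in cluster 3. Clusters 7 and 2 had the most Rhox5 (5.42 and 5.25) but came below these clusters, with Il34 medians of 0.451 and 0.396.

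Il34 levels also moved with the brain. In clusters 0, 2 and 7 together Il34 was at 0.260, 0.199, 0.467 and 0.518 per 10000 in the hashtag 1, 2, 3 and 4 brains, and in choroid plexus-like cells at 0.0478, 0.0737, 0.157 and 0.190. The hashtag 3 and 4 brains were above the other two in both. Rhox5 moved alike, at 3.36, 3.41, 5.37 and 5.01 in clusters 0, 2 and 7 and at 0.590, 0.496, 1.29 and 1.44 in choroid plexus-like cells of the same brains. Ttr stood at 819, 1135, 127 and 123 in clusters 0, 2 and 7, so the few such cells of the hashtag 1 and 2 brains (94 and 44) carried the most choroid plexus RNA. The part of RNA carried between droplets in these Il34 levels was not tested.

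A UMI of Il34 was found in 44.1%, 54.1% and 57.5% of the cells of clusters 0, 2 and 7 at median depths of 13009, 18775 and 27670 UMIs, against 8.07% of choroid plexus-like cells at 7282.5. With every cell thinned to 2495 UMIs the shares were 11.5%, 10.7% and 9.10% against 2.21%, and 11.4% in cluster 9 and 11.1% in cluster 10. At equal depth the order of clusters 0, 2 and 7 was the reverse of that before thinning. For Csf1 the thinned share was highest in endothelial-like cells (10.96%, unthinned 20%), against 5.70% in cluster 0 and 1.301% in choroid plexus-like cells (unthinned 24.7% and 5%). Of the 2176 cells of clusters 0, 2 and 7, 346 held UMIs of both ligands: 32.5% of Il34-positive and 23.7% of Il34-negative cells had Csf1, at median depths of 16374 and 13904.5 UMIs.

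Among the receptors, Csf1r set immune cluster 3 apart. Its level was 5.76, 10.2, 3.55 and 3.22 per 10000 in cluster 3 of the hashtag 1, 2, 3 and 4 brains. Cluster 6 had 9 of 10 neutrophil and 5 of 5 granulocyte progenitor markers at least 4-fold over the rest of the pool. It was mixed, with 5 of 10 markers of marrow-derived monocytes or macrophages, 3 of 8 of B cells and 3 of 11 of T cells. Its Csf1r followed with 1.304 and 1.15 in the hashtag 1 and 3 brains, where at least 20 cells were present. Outside the immune clusters the highest median was that of cluster 5, a cluster with a median mitochondrial percentage of 14.8%, at 0.358, 0.680, 0.329 and 0.399. The ranges of clusters 3, 6 and 5 did not overlap, and all lower neighbours overlapped. At least 1 Csf1r UMI was found in 71.0% of cluster 3 cells (exact binomial 95% interval 66.3% to 75.4%) at a median depth of 3815 UMIs, against 9.66% of choroid plexus-like cells (7.79% to 11.8%) at 7282.5, or 56.1% against 3.47% after thinning. In clusters 0, 2 and 7 Csf1r was at 0.319, 0.426, 0.133 and 0.103 and Tyrobp, an adaptor gene of myeloid cells, at 1.46, 1.85, 0.824 and 0.851, against 18.7 to 29.6 for Tyrobp in clusters 3 and 6. Both genes were higher in these clusters in the hashtag 1 and 2 brains, and the part of carried myeloid RNA in this Csf1r was not tested.

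The Csf2 receptor subunits were also highest in cluster 3. Csf2ra, the ligand-binding alpha chain, was at 0.790, 0.935, 1.11 and 1.22 per 10000 in cluster 3 and at 0.666 and 0.620 in cluster 6 of the hashtag 1 and 3 brains, with no overlap. Csf2rb, the beta chain, was at 0.226, 0.575, 1.43 and 0.954 in cluster 3 and at 0.291 and 0.177 in cluster 6, which overlapped. The low Csf2rb value of the hashtag 1 brain rests on 2 UMIs in 21 cells. Csf2rb and its near-identical neighbour Csf2rb2 can share reads, so the split between them is uncertain, and Csf2rb2 was at 0.113, 0.0719, 0.267 and 0.157 in cluster 3. Of 404 cluster 3 cells, 48 had UMIs of both Csf2ra and Csf2rb. Csf2ra was found in 35.8% of Csf2rb-positive and in 38.9% of Csf2rb-negative cells, at median depths of 4225 and 3647 UMIs.

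Csf3r, the rarest of the set, was at 0.677, 0.719, 0.342 and 0.435 per 10000 in cluster 3 and at 0.333 and 0.266 in cluster 6 of the hashtag 1 and 3 brains. The ranges did not overlap, although cluster 6 holds the neutrophil markers, but they nearly met, at 0.342 and 0.333. Cluster 6 gave 32 Csf3r UMIs over all brains, and its hashtag 3 value comes from 26 cells. Cluster 5 had 0 Csf3r UMIs in 226 cells, which allows a share of cells with a UMI of up to 1.62% (exact binomial 95% interval), and at a median depth of 3828.5 UMIs this does not limit the share of cells that express the gene.

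**Figure D2:**
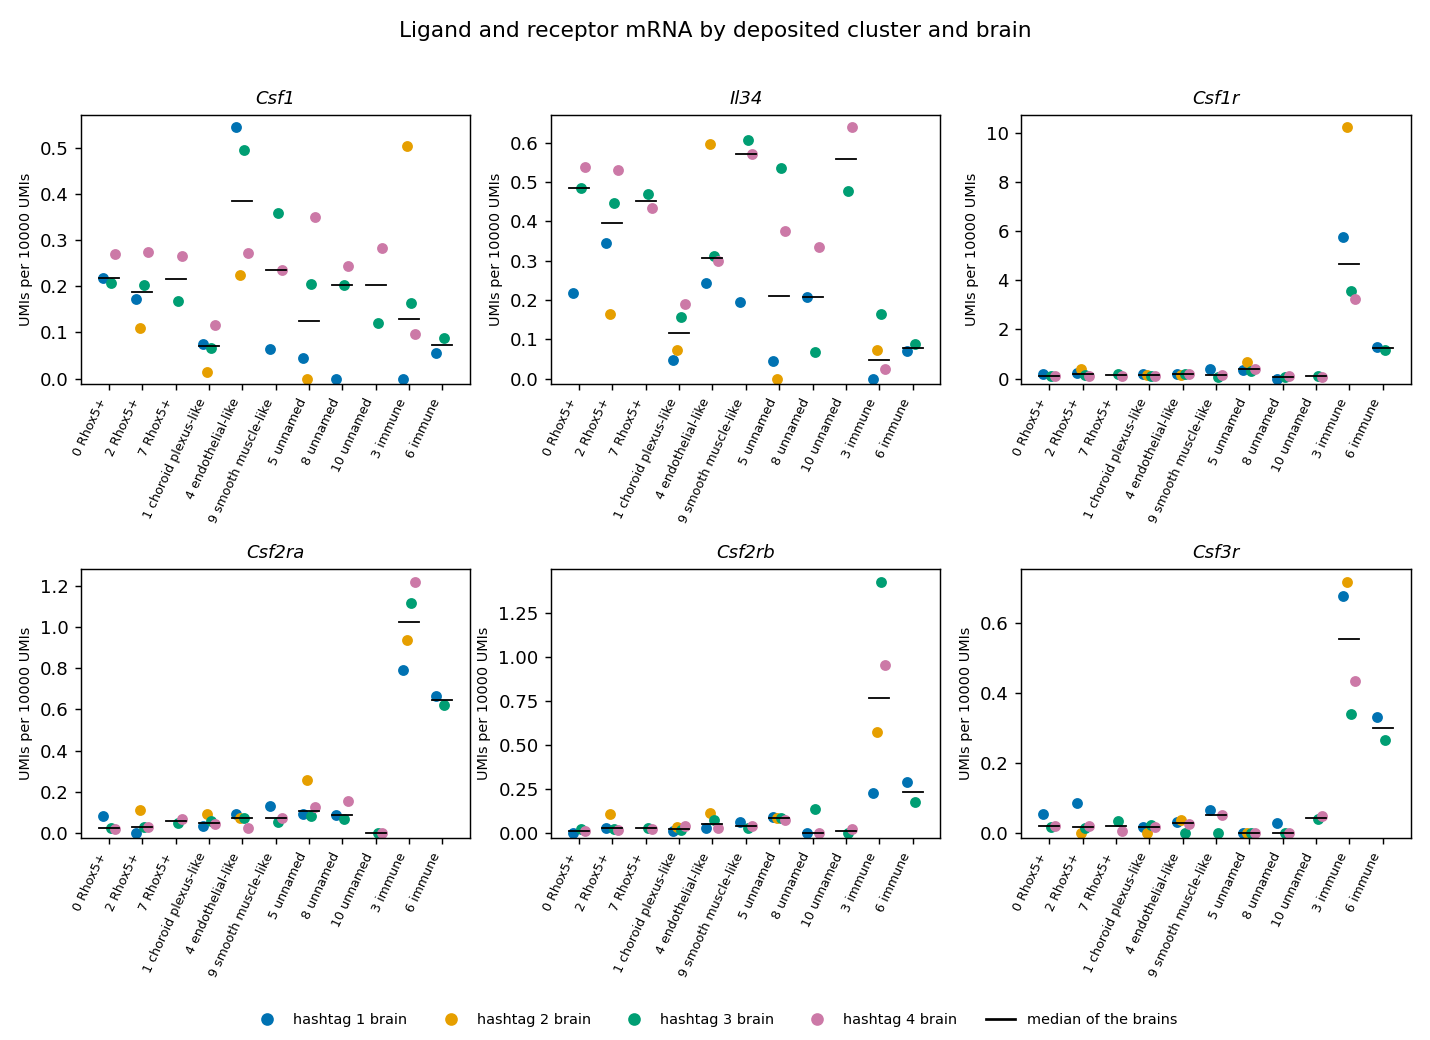
Points give the level of each gene (UMIs of the gene per 10000 UMIs, linear axes that differ between panels) by deposited cluster, 1 point for each brain with at least 20 cells of the cluster, and black lines the median of these brains. Receptor points stand highest in clusters 3 and 6, with Csf1r at 3.22 to 10.2 in cluster 3, while Csf1 and Il34 points of most clusters overlap.

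Clusters 3 and 6 were parted into 11 subclusters on marker genes that hold none of the 6 genes. Among them, 30 cells were choroid plexus-like, 15 smooth muscle-like and 58 led by erythroid markers. These cells are part of all values of clusters 3 and 6 above. In the 84 microglia-like cells Csf1r was at 8.72 (9 cells), 12.7, 5.52 and 7.65 per 10000 in the hashtag 1, 2, 3 and 4 brains. In the 71 cells led by Pf4, Spp1 and Gpnmb, genes of border and lipid-handling macrophages, it was at 5.003 and 2.22 in the hashtag 3 and 4 brains. A class of 86 cells with markers of marrow-derived monocytes or macrophages had 2.89 and 2.41 in the same 2 brains, and the 109 neutrophil-like cells had 2.48 (80 cells) in the hashtag 1 brain. In the hashtag 3 and 4 brains microglia-like cells had more Csf1r than the Pf4 and Spp1-led and marrow-derived-like cells, by little over the Pf4 and Spp1-led cells of the hashtag 3 brain. The 56 granulocyte progenitor-like cells, 48 of them from the hashtag 1 brain, were lowest with 0.507 there. The microglia-like class was mixed by markers. Its microglia markers summed to 57.0, 59.2, 23.5 and 38.6 per 10000 in the hashtag 1, 2, 3 and 4 brains. Its marrow-derived markers summed to 24.7, 15.7, 29.9 and 34.8, above the microglia markers in the hashtag 3 brain. Its B cell markers summed to 2.04, 41.6, 0.518 and 2.46. The part of this mix in its Csf1r level was not tested.

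Lymphoid subclusters carried Csf1r UMIs as well. The 65 T cell-like cells had 2.22 and 2.11 per 10000 in the hashtag 3 and 4 brains, and 55.4% of them held a UMI at a median depth of 3750, above the 9.66% of choroid plexus-like cells at 7282.5. The 28 NK cell-like cells had 3.07 (15 cells) and 3.26 (11 cells). The summed level of 10 marrow-derived markers was 24.4 and 34.8 in T cell-like cells of the hashtag 3 and 4 brains, against 69.8 and 86.7 in marrow-derived-like cells, with 0 of the 10 markers at 0 in both classes. That of 10 microglia markers was 7.48 and 8.66, against 23.5 and 38.6 in microglia-like cells, with 1 of the 10 at 0 in the T cell-like cells of each brain. Summed T cell markers were 20.4 and 22.2. In NK cell-like cells of the same brains marrow-derived markers summed to 38.4 and 38.2 and microglia markers to 10.7 and 10.4. The part of myeloid RNA in the T cell-like and NK cell-like values was not tested.

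The other receptors had other orders. Csf2ra was at 1.21 and 1.69 in marrow-derived-like cells (hashtag 3 and 4 brains), at 1.79 and 1.20 in the Pf4 and Spp1-led cells and at 1.38 and 1.10 in microglia-like cells, and these overlapped. Csf2rb was at 1.45 and 1.82 in marrow-derived-like cells, 1.64 and 1.27 in microglia-like cells and 2.23 and 0.633 in the Pf4 and Spp1-led cells. Microglia-like cells of the hashtag 1 and 2 brains had less Csf2rb, at 0.291 (1 UMI in 9 cells) and 0.653 (6 UMIs in 21 cells). Csf3r was at 0.872, 0.980, 0.776 and 0.510 in microglia-like cells and at 0.543, 1.49, 0.709 and 0.714 in neutrophil-like cells of the 4 brains, the last 3 neutrophil values resting on 4, 11 and 14 cells. In marrow-derived-like cells it was at 0.241 and 0.260 in the hashtag 3 and 4 brains, below both other classes in each of these brains, while 5 such cells of the hashtag 1 brain had 1.27 from 2 UMIs. Neutrophil markers summed to 310 per 10000 in the 9 microglia-like cells of the hashtag 1 brain, against 6.64, 10.5 and 8.92 in those of the hashtag 2, 3 and 4 brains, where Csf3r was at 0.980, 0.776 and 0.510. Subclusters were made from mRNA, so these levels carry no test.

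**Figure D3:**
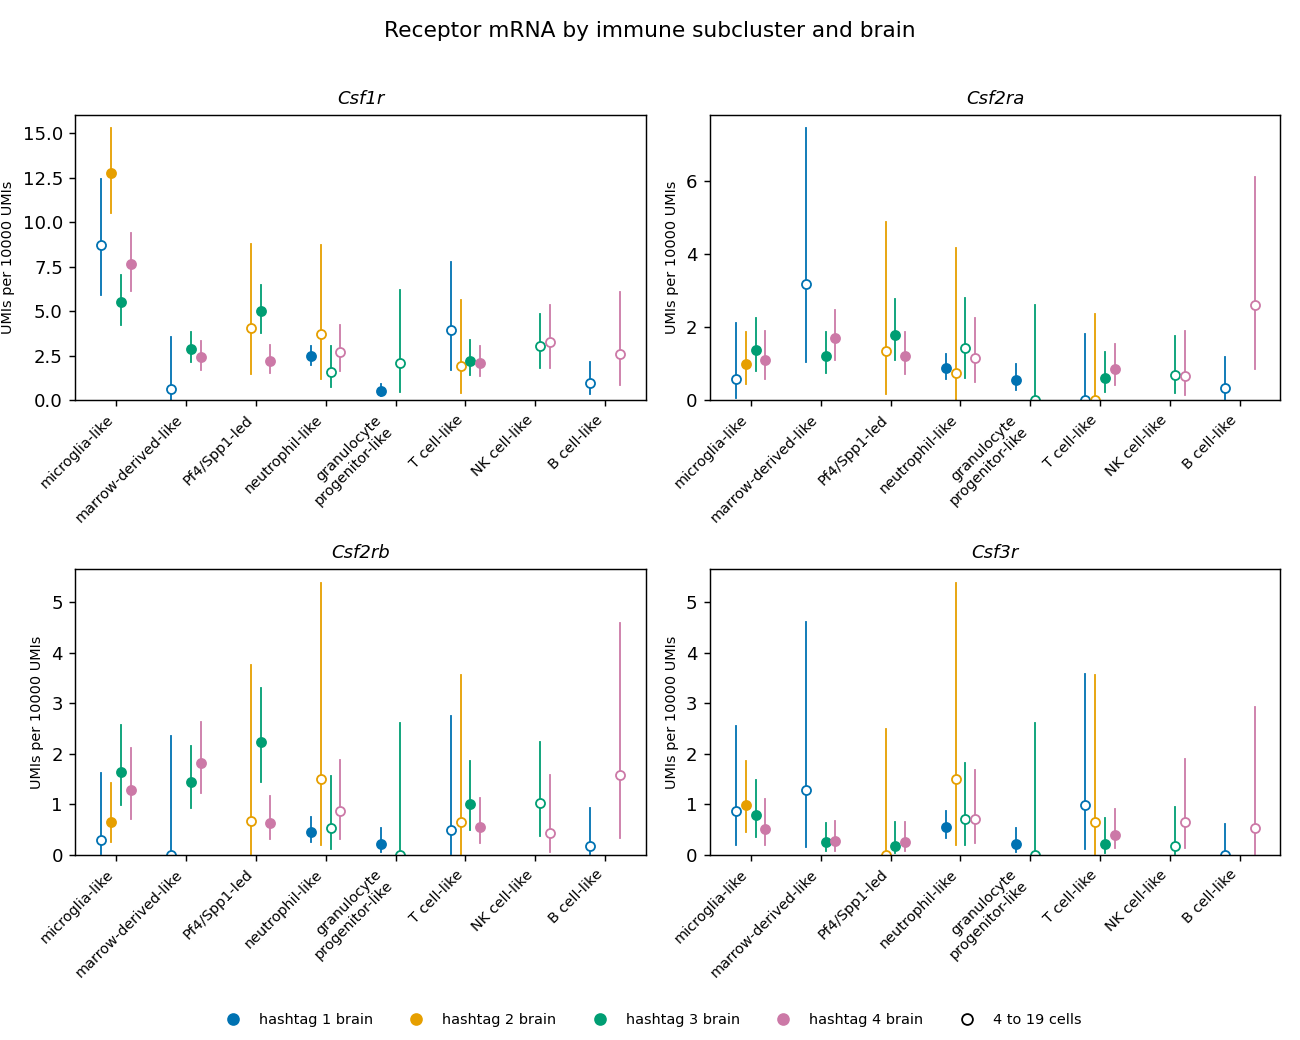
Points give the level of each receptor gene (UMIs per 10000 UMIs, linear axes that differ between panels) by immune subcluster and brain, with exact Poisson 95% intervals as bars and open points for 4 to 19 cells. Csf1r is highest in microglia-like cells (5.52 to 12.7), and Csf3r is at 0.241 and 0.260 in marrow-derived-like cells (hashtag 3 and 4 brains).

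A test independent of the mRNA clusters parted all cells of each brain by the CD45 tag. There were 230, 75, 255 and 351 cells with at least 300 tag counts and 614, 335, 1130 and 1678 cells below it in the hashtag 1, 2, 3 and 4 brains. Values in this test are means over cells of UMIs per 10000, and differences are on the scale log2(mean + 0.1), which understates the change of low genes. All 4 receptor genes were higher in CD45-tag-high cells and neither ligand gene passed: 4 of 6 genes higher and 0 lower, where 8.47% of the 12669 genes tested were higher and 2.3% lower at a limma adjusted p of 0.05. All 6 genes passed the filter of a UMI in at least 1% of cells. The 6 genes and the threshold of 300 were set with earlier results of these data known. The background split moved with the scaling, with 1073 genes higher and 291 lower here, 774 and 43 with median-of-ratios factors and 911 and 20 with summed counts.

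Csf1r averaged 1.77, 5.16, 2.55 and 2.04 per 10000 in CD45-tag-high cells and 0.144, 0.140, 0.133 and 0.104 in CD45-tag-low cells of the hashtag 1, 2, 3 and 4 brains. The groups were far apart in each of the 4 brains, and the log2 difference was 3.57 (SE 0.25, limma adjusted p = 0.000109). Csf2ra averaged 0.644, 0.624, 0.921 and 0.917 in CD45-tag-high cells and 0.0621, 0.0960, 0.0326 and 0.0265 in CD45-tag-low cells, a log2 difference of 2.51 (SE 0.24, limma adjusted p = 0.000417). Csf2rb averaged 0.299, 0.506, 0.889 and 0.653 in CD45-tag-high cells and 0.0175, 0.0481, 0.0343 and 0.0165 in CD45-tag-low cells, a log2 difference of 2.34 (SE 0.23, limma adjusted p = 0.000555). None of these groups overlapped. Csf3r averaged 0.312, 0.382, 0.264 and 0.285 in CD45-tag-high cells and 0.0202, 0.00233, 0.0137 and 0.0167 in CD45-tag-low cells, with a log2 difference of 1.85 (SE 0.18, limma adjusted p = 0.000527). All 4 receptor genes kept direction and passed in every alternative run that tested them, with a largest adjusted p of 0.00864. Csf3r was tested in 15 alternatives and the other receptor genes in 16, as Csf3r fell below the filter at 5% of cells.

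The ligands showed no such split. Csf1 averaged 0.0425, 0.380, 0.175 and 0.140 per 10000 in CD45-tag-high cells and 0.145, 0.0668, 0.212 and 0.260 in CD45-tag-low cells, higher in the first group in the hashtag 2 brain alone. Its fitted log2 difference was -0.00 (SE 0.36, limma adjusted p = 0.995), and its sign changed with the setting. Il34 averaged 0.0620, 0.162, 0.176 and 0.143 in CD45-tag-high cells and 0.104, 0.111, 0.407 and 0.469 in CD45-tag-low cells. It was lower in CD45-tag-high cells in 3 of 4 brains, with a log2 difference of -0.53 (SE 0.27, limma adjusted p = 0.233; 0.0947 to 0.575 over the alternatives). With 4 brains, these p-values do not show that ligand levels were alike in both groups. Of the CD45-tag-high cells, 172, 43, 180 and 211 came from clusters 3 and 6, so the tag group held cells of other clusters too.

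**Figure D4:**
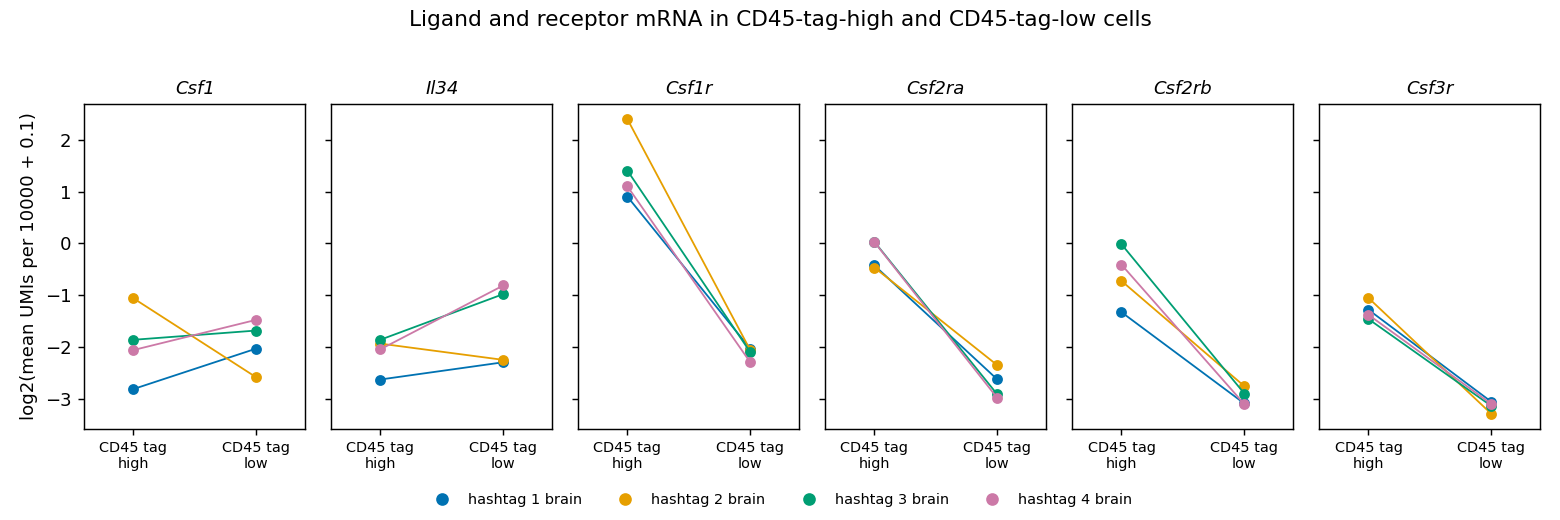
Each panel gives 1 gene as log2(mean UMIs per 10000 + 0.1), with CD45-tag-high cells on the left, CD45-tag-low cells on the right and a line for each of the 4 brains. All lines of the 4 receptor genes fall to the right, with a Csf1r log2 difference of 3.57, and those of Csf1 and Il34 cross or go both ways.

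Markers of several cell types moved with the CD45 tag. Summed over 10 genes, microglia markers were at 7.97, 19.1, 6.92 and 6.25 per 10000 in CD45-tag-high cells and at 0.789, 0.625, 0.940 and 1.11 in CD45-tag-low cells of the hashtag 1, 2, 3 and 4 brains. Neutrophil markers were at 756, 63.0, 71.6 and 48.5 in CD45-tag-high cells and at 5.15 to 12.8 in CD45-tag-low cells. The hashtag 2 brain had the most microglia RNA and the most Csf1r in CD45-tag-high cells, and the hashtag 1 brain the most neutrophil RNA. Median depth was 3875.5, 3502, 4206 and 4470 UMIs in CD45-tag-high cells and 4670.5, 5924, 13823 and 13705 in CD45-tag-low cells. Choroid plexus markers were at 644, 751, 279 and 389 in CD45-tag-high cells and at 2458, 2863, 514 and 345 in CD45-tag-low cells. The mean mitochondrial percentage was 3.53, 2.99, 2.68 and 2.78 in CD45-tag-high cells and 8.06, 9.22, 3.08 and 2.69 in CD45-tag-low cells, apart mainly in the hashtag 1 and 2 brains. The part of cell mix, depth and RNA quality in the receptor differences was not tested.

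Within CD45-tag-high cells, the CD11b tag then parted CD11b-upper from CD11b-lower cells at its median in each brain (115, 37, 127 and 175 cells against 115, 38, 128 and 176). Of the CD11b-upper cells 96, 32, 113 and 150 came from clusters 3 and 6, against 76, 11, 67 and 61 of the CD11b-lower cells, so that in the hashtag 2 and 4 brains most CD11b-lower cells came from other clusters. Csf1r, Csf2rb and Csf3r were higher in CD11b-upper cells, 3 of 6 genes, where 2.54% of 12669 genes were higher and 1.41% lower at the same threshold. Csf1r averaged 2.93, 9.03, 3.18 and 3.00 per 10000 in CD11b-upper cells and 0.604, 1.39, 1.91 and 1.09 in CD11b-lower cells of the hashtag 1, 2, 3 and 4 brains, a log2 difference of 1.70 (SE 0.25, limma adjusted p = 0.0048). Csf2rb averaged 0.440, 0.744, 1.27 and 0.995 in CD11b-upper cells and 0.158, 0.274, 0.512 and 0.312 in CD11b-lower cells (log2 difference 1.20, SE 0.19, limma adjusted p = 0.00734). The groups of Csf1r did not overlap and those of Csf2rb did, although each brain had more in CD11b-upper cells.

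Csf3r averaged 0.443, 0.623, 0.379 and 0.426 in CD11b-upper cells and 0.180, 0.147, 0.149 and 0.145 in CD11b-lower cells (log2 difference 1.14, SE 0.23, limma adjusted p = 0.0238). Csf2ra averaged 0.684, 0.715, 1.17 and 1.17 in CD11b-upper cells and 0.604, 0.536, 0.670 and 0.665 in CD11b-lower cells, a log2 difference of 0.49 (SE 0.19) that did not pass (limma adjusted p = 0.168). It passed with summed counts (0.0167), median-of-ratios factors (0.0119) and edgeR (2.76e-05), within a range of 2.76e-05 to 0.773 over the alternatives. The ligands did not pass: Csf1 had a log2 difference of -0.22 (SE 0.29, limma adjusted p = 0.728) and Il34 of -0.47 (SE 0.32, limma adjusted p = 0.444).

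The CD11b calls held only under some settings. With the brain left out of the fit as a block, with the gene filter dropped, in cells with at least 80% of hashtag counts from their own hashtag, in cells of clusters 3 and 6 alone, or without the hashtag 4 brain, limma called 0 genes in the whole table, with 2079, 2442, 1409, 833 and 1671 genes at an unadjusted p under 0.05. In cells of clusters 3 and 6 alone the log2 differences were 0.80 for Csf1r, 1.08 for Csf2rb and 0.93 for Csf3r, each with an adjusted p of 0.669. Without the hashtag 1 brain the limma adjusted p was 0.0589 for Csf1r and 0.0875 for Csf3r, and without the hashtag 3 brain it was 0.0691 for Csf2rb and 0.112 for Csf3r. Microglia markers were at 14.1, 39.7, 9.97 and 11.04 in CD11b-upper cells and at 1.87, 4.89, 4.75 and 3.17 in CD11b-lower cells, and neutrophil markers at 1406, 146, 106 and 93.2 against 109, 5.57, 47.1 and 19.8. Choroid plexus markers were at 412, 312, 245 and 339 in CD11b-upper cells and at 876, 1053, 304 and 421 in CD11b-lower cells. The part of this cell mix in the differences was not tested.

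**Figure D5:**
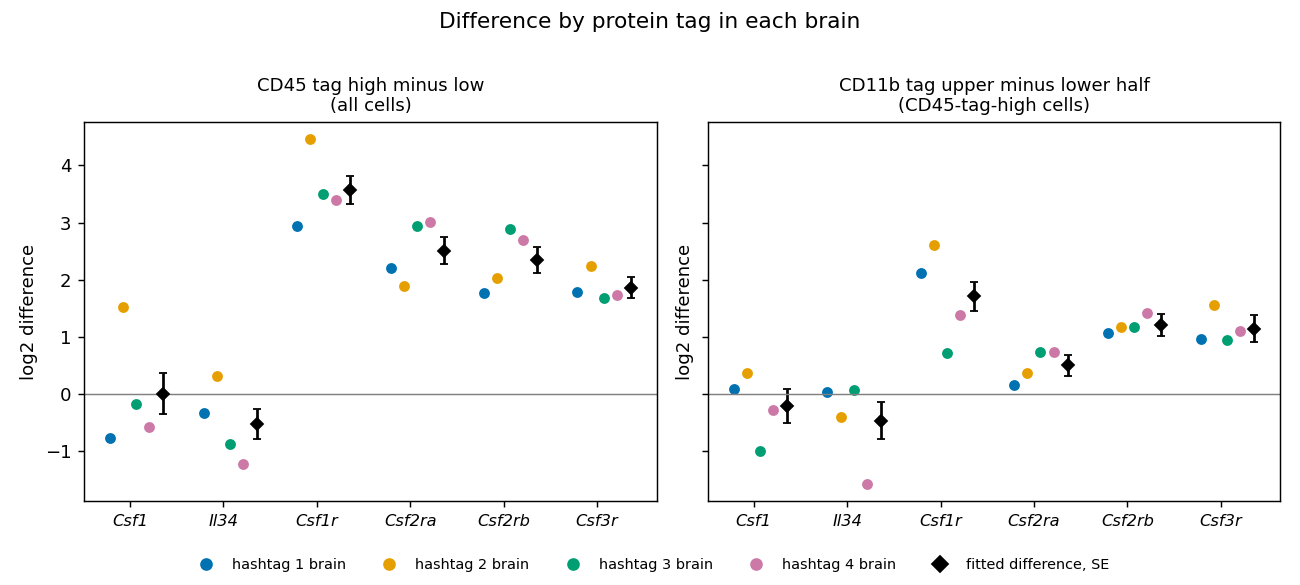
Points give the log2 difference of each gene in each brain by CD45 tag (left, high minus low) and CD11b tag (right, upper minus lower), and diamonds the fitted difference with its SE. The 4 receptor genes lie above 0 in all 4 brains in both panels, with Csf2ra closest to it for CD11b (0.49), while Csf1 and Il34 lie on both sides of 0.

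The wider pathway was read from fixed gene lists in the CD45 comparison. Of 13 other ligands and receptor subunits of the family, 11 were in the table and 8 were tested, with 2 higher and 1 lower in CD45-tag-high cells and a list median of 0.18, against -0.05 over all genes. Over all 12669 genes tested, 8.47% were higher and 2.3% lower. Il3ra, the alpha chain that pairs with Csf2rb for Il3, was at 0.162, 0.183, 0.0924 and 0.286 per 10000 in CD45-tag-high cells and at 0.0394, 0.00998, 0.0216 and 0.0120 in CD45-tag-low cells (log2 difference 1.18, limma adjusted p = 0.00963; up to 0.0712 over the alternatives). Csf2rb2, the Il3-specific beta chain of mice, was at 0.0272, 0.0360, 0.232 and 0.104 against 0.00739, 0, 0.0164 and 0.00583 (0.79, limma adjusted p = 0.0473), and it did not pass without the hashtag 1, 2 or 3 brain (0.0630, 0.0843 and 0.0894). Kitl, the ligand of Kit, was lower at 0.0753, 0.0958, 0.0565 and 0.105 in CD45-tag-high cells against 0.169, 0.317, 0.154 and 0.188 in CD45-tag-low cells (-0.72, limma adjusted p = 0.0439), and it passed in 5 of 16 alternatives, being lost without any 1 of the 4 brains (0.0650 to 0.143).

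The other tested family genes did not pass. Their log2 differences were -0.12 for Csf3, 0.22 for Ptprz1, -0.52 for Sdc1, 0.14 for Kit and 0.37 for Flt3l. Ptprz1 and Sdc1 are known as further binding partners of Il34. Csf2, Il5ra and Flt3 were too rare to be tested. In endothelial-like cluster 4, Kitl stood at 0.786, 1.16, 0.386 and 0.454 per 10000 in the hashtag 1, 2, 3 and 4 brains, above choroid plexus-like cells of the same brains at 0.0744, 0.0335, 0.0559 and 0.0898.

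Transcription factors of the myeloid lineage were higher in CD45-tag-high cells in 9 of the 10 tested, with 0 lower and a list median of 1.396. The shares over all genes tested were 8.47% higher and 2.3% lower. Spi1, a factor that drives Csf1r transcription, was at 2.23, 2.53, 2.69 and 2.12 per 10000 in CD45-tag-high cells and at 0.219, 0.0449, 0.0899 and 0.0784 in CD45-tag-low cells (log2 difference 3.64, limma adjusted p = 7.88e-05). Irf8, a factor of macrophages, was higher by 2.26, and the C/EBP genes Cebpa, Cebpe and Cebpb by 1.54, 1.42 and 1.37. Cebpb lost its call without the hashtag 1 or 2 brain (limma adjusted p = 0.0778 and 0.0523) and with median-of-ratios factors (0.0636), and Cebpe passed in 7 of 15 alternatives and not without the hashtag 2 brain (0.0827). Runx1, Klf4 and Egr2 were also higher but passed in only 7 of 16, 6 of 16 and 6 of 15 alternatives, with limma adjusted p up to 0.142, 0.256 and 0.163. Runx1 was lost without the hashtag 1, 2 or 3 brain (0.142, 0.109 and 0.0653), Klf4 without the hashtag 2, 3 or 4 brain (0.0863, 0.145 and 0.0669) and Egr2 without the hashtag 2 or 3 brain (0.125 and 0.105). Maf, at 1.04, was the 1 tested factor that did not pass, and Gfi1 was too rare to be tested.

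Of 32 genes listed as signalling proteins downstream of the receptors, 16 were higher in CD45-tag-high cells and 0 lower. The list median was 0.87, and of all genes tested 8.47% were higher and 2.3% lower. Tyrobp, an adaptor of myeloid receptors, was at 17.1, 16.3, 19.8 and 21.4 per 10000 in CD45-tag-high cells and at 1.16, 0.740, 0.786 and 0.741 in CD45-tag-low cells (log2 difference 4.30, limma adjusted p = 4.23e-05). Its partner Trem2, on the list though itself a surface receptor, was higher by 3.57. The kinase gene Pim1, a target of Stat5, was higher by 2.75 and the phosphatase gene Ptpn6 by 2.74. Inpp5d, a lipid phosphatase gene, was higher by 2.50. Jak2, Stat5a and Stat5b, which act below Csf2rb, had log2 differences of 0.42, 0.54 and 0.31 and did not pass, and were picked for mention after their values were seen. Of the 4 genes for proteases and their partners that shed the receptor or the membrane-bound ligand, 0 passed in limma: Adam10 differed by 0.16, Adam17 by 0.24, Rhbdf2 by 0.28 and Tspan33 by -0.78. At an unadjusted p under 0.05 the count was 1 of 4, Tspan33, where 3569 of 12669 genes were under it.

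Across 35 profiles of cluster and brain with at least 20 cells each, which share the library and differ in depth, the 4 receptor genes had Pearson correlations of 0.77 to 0.91 with one another, and Csf1 and Il34 of 0.62. Between ligand and receptor genes the correlations ran from -0.64 to -0.07. Of 12669 genes, those most like Csf1r included Ccl3 (0.949), Ly86 (0.937), Cx3cr1 (0.934) and Adgre1 (0.934). Csf2ra was most like Fcer1g (0.952), Spi1, Ptprc, Tyrobp and Pycard, Csf2rb most like Ccr1 (0.942), Fcgr1, Il7r, Lilrb4a and Ctss, and Csf3r most like Irf5 (0.956), Pik3cg, Ly86, Rhoh and Ncf1. For the ligands the closest genes were Ano1 (0.902), Oaf, Strap, Nos1 and Esx1 for Il34 and P4hb (0.805), Sfxn3, Tspan4, Gm26917 and Maf1 for Csf1. These values describe the profiles and carry no p.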

How the data were processed

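mRNA, antibody tags and hashtags were measured in 1 pool of 4 mouse brains. The authors aligned reads to mm10 with Cell Ranger 2.1 and used Seurat 2.3.4, per the submitters' processing notes, and counted tags with CITE-seq-Count 1.3.4, per the series text. In the deposited expression table, each UMI count is scaled to 10000 per cell, raised by 1 and given as a natural log. The deposited tag, hashtag and UMI totals are counts, and the mitochondrial share is a deposited fraction. UMI counts were recovered from the log values: 99.8% of values above 0 were whole within 0.01, and cell sums lay within 10 UMIs of the deposited totals. Cells held 2495 to 43038 UMIs.

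Brains were taken from the deposited hashtag class, which was the highest hashtag in 100% of cells, and clusters from the deposited numbers. The labels do not tie a hashtag to naive or metastatic, so this comparison was not made. Levels by cluster are summed UMIs per 10000 with exact Poisson 95% intervals and carry no test. Clusters 3 and 6 were subclustered on marker genes without the 6 genes (scikit-learn 1.9.0, leidenalg 0.10.2, resolution 1). No cells were removed and no doublet caller was run, with cells of at least 80% own-hashtag counts as an alternative. 0 cells shared a barcode.

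For the tag tests, means over cells of UMIs per 10000 per brain and tag class, as log2(mean + 0.1), were fitted with limma 3.58.1 (R 4.3.3, trend, brain as block) for 12669 genes with a UMI in at least 1% of cells, with Benjamini-Hochberg adjustment. The fit was also run on simulated summed counts without brain differences, which does not check it for means over cells. The block pairs samples from the same animal, whose deviations correlated by 0.163 to 0.247 (CD45) and 0.0783 to 0.296 (CD11b). edgeR 4.0.16 on the recovered counts and DESeq2 1.42.0 size factors were alternatives. With 1 pool, p-values measure the spread between these 4 brains. The 6 genes, gene lists, motif and CD45 threshold of 300 were chosen with earlier results of these data known. Named genes were the 6 genes, the family genes tested, up to 6 genes of each other list with the largest differences that passed, and the 5 genes most like each of the 6. Some genes that this rule names are not reported here. Promoter sequences came from RefSeq (GRCm38.p6), and gene positions from the same assembly, which mm10 names.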

Additional observations from a re-analysis of the deposited data

How the results depend on the processing

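The 4 receptor calls by CD45 tag kept direction and threshold under each alternative run that tested them, and Il34 did not pass under any. Csf1 changed sign by CD45 tag, at 0.012 with a pseudocount of 1, 0.13 with summed counts, 0.045 with median-of-ratios scaling and -0.51 to 0.25 without 1 brain (above 0 without hashtag 1, 3 or 4), and by CD11b tag, at 0.14 in clusters 3 and 6 alone and -0.41 to 0.046 without 1 brain (above 0 without hashtag 3). The number of genes higher by CD45 tag (1073) became 711 with a filter at 5% of cells, 666 in cells with at least 80% own-hashtag counts and 787 to 1030 without 1 brain. The number lower (291) became 142 with a threshold of 100, 98 with a pseudocount of 1 and also with no filter, 20 with summed counts, 43 with median-of-ratios scaling, 51 with edgeR, 103 at 80% own-hashtag counts, 1049 with high cells of clusters 3 and 6 alone and 34 to 588 without 1 brain (34 without hashtag 1, 97 without 2, 117 without 3, 588 without 4). Without the replicate block 1002 genes were higher and 206 lower by CD45 tag, and 0 and 0 by CD11b tag, where 2079 had an unadjusted p under 0.05. By CD11b tag, 322 higher and 179 lower became 188 and 57 with a pseudocount of 1, 647 and 452 with summed counts, 706 and 359 with median-of-ratios scaling, 1173 and 769 with edgeR, 0 and 0 with no filter, at 80% own-hashtag counts and in clusters 3 and 6 alone, and 0 to 330 and 0 to 216 without 1 brain (116 and 31 without hashtag 1, 107 and 16 without 3, 0 and 0 without 4). The cause was not tested. The Csf2ra median of cluster 3 moved to 1.24 at 80% own-hashtag counts. Thinning moved the share of cells with a UMI to 56.1% (Csf1r), 26.6% (Csf2ra), 22.3% (Csf2rb) and 10.3% (Csf3r) in cluster 3, 10.96% for Csf1 in cluster 4 and 11.4% for Il34 in cluster 9. No marrow-derived-like class formed at resolution 0.5. Over single genes, 505 results kept direction and call, 97 lost and 3 gained the call and 8 changed sign. Depth limits the rare genes: Csf3r had 196 UMIs in the pool.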

Other observations

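A pair of ligand genes outside the 6 each had most of their UMIs in 1 cluster. Csf3 had 126 UMIs in 63 cells, with 96 in endothelial-like cluster 4 and 22 in clusters 0, 2 and 7. In cluster 4 it was at 0.181, 0, 1.47 and 0.130 UMIs per 10000 in the hashtag 1, 2, 3 and 4 brains. Of the 96 UMIs, 80 came from the hashtag 3 brain, in 28 of 81 cells. Csf2, the GM-CSF gene, had 86 UMIs in 6 cells, and 77 of them lay in 1 cell of cluster 10 from the hashtag 3 brain, which held 3181 UMIs, a CD45 tag count of 34, a CD3e tag count of 0 and 68.1% of its hashtag counts from its own hashtag. Both genes were picked after their values were seen.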
